A study of Mus musculus with 2 samples.

Results

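The GIMAP genes encode a family of GTPases of the immunity-associated protein type, and the data here cover all 8 mouse members, chosen by name as the rows of the deposited count table whose Entrez identifier belongs to Gimap1, Gimap3, Gimap4, Gimap5, Gimap6, Gimap7, Gimap8 or Gimap9. All 8 were found among 27179 genes, and all 8 passed the filter of at least 1 CPM (counts per 1000000 counts) in 1 library or both, which left 12125 genes. The family was chosen with its levels in these libraries already known, so its folds are given as a description. The cells were those of ALL211, a T-cell acute lymphoblastic leukemia of the mouse. It carries Vav-tTA, a tetracycline-controlled transactivator under the Vav promoter of blood cells, and TRE-GFP-shIkaros, which makes GFP together with a short hairpin RNA against Ikaros. The Dox group (1 library) came from recipient mice given doxycycline (Dox) for 3 days, which switches the hairpin off, and its leukemia cells carry the label GFPmid. The untreated group (1 library) came from recipients without Dox, with the hairpin on, and its cells carry the label GFPhigh. Both transgenes were present in both groups, all cells were sorted from spleen, and both libraries derive from 1 primary leukemia and carry the same batch date. The design text names 2 mice per condition but each condition has 1 library, and no label says whether RNA of the mice was combined.

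GIMAP proteins are GTPases of lymphocytes whose guanine nucleotide domain resembles that of septins and of plant chloroplast import receptors. Many sit on intracellular membranes such as lysosomes, the endoplasmic reticulum or mitochondria. Loss of Gimap1 or Gimap5 in mice leaves few mature T cells, and a mutation of Gimap5 underlies the lymphopenia of the diabetes-prone BB rat, so the family is best known for the survival of mature lymphocytes. The genes lie side by side and carry the same GTP-binding P-loop.

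All members carried the P-loop, which is given here as a shared feature and not as the mark that defines the family. Its coding bases show which members are identical over this motif. These bases were found in GENCODE M21 transcripts (GRCm38). The pattern was a glycine, 4 residues of any kind, a glycine, a lysine and a serine or threonine. Codons of the residues that the pattern fixes are in capitals, and those of the 4 residues it leaves free are in lower case.
Gimap1: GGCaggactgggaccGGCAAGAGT
Gimap3: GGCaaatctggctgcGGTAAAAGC
Gimap5: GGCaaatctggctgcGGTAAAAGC
Gimap4: GGAaaaactggagcaGGAAAGAGT
Gimap6: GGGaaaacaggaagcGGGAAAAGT
Gimap7: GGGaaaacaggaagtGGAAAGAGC
Gimap8, copy 1: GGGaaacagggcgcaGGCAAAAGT
Gimap8, copy 2: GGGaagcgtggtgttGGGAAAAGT
Gimap8, copy 3: GGAaggagtggggctGGAAAGAGT
Gimap9: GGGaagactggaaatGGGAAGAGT
Gimap8 carried the motif 3 times, at codons 55 to 62, 291 to 298 and 482 to 489 of its 688 codons, while the other members carried it 1 time in 291 to 328 codons. The 24 bases were identical in Gimap3 and Gimap5. Over the whole coding sequence those genes were 90.4% identical (809 of 895 aligned bases), against 55.8% to 67.9% for the other 20 pairs among the 7 members besides Gimap8.

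All 8 genes lie on chromosome 6 of GRCm38 within 124 kb, in the order Gimap8 (chr6:48647186-48660875), Gimap9 (chr6:48676121-48679116), Gimap4 (chr6:48684578-48692062), Gimap6 (chr6:48701583-48708244), Gimap7 (chr6:48718621-48724636), Gimap1 (chr6:48739047-48743795), Gimap5 (chr6:48746197-48754200) and Gimap3 (chr6:48764464-48770851). These spans come from RefSeq (GRCm38.p6) and include introns. GENCODE also places a read-through gene, Gm28053, over Gimap7, Gimap1 and Gimap5, and the antisense gene Gimap1os over Gimap1. RefSeq places the non-coding Gm46958 over the start of Gimap9. The strand setting of the counting is not given, so where these genes overlap their reads cannot be told apart.

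The Dox library held 16484613 counts and the untreated library 16960042. Ikzf1, the gene of Ikaros, stood at 1229 CPM in the Dox library and 120.5 CPM in the untreated library, the direction the labels give. With 1 library per condition there is no replicate check and no p-value. The intervals below are 95% intervals that cover counting error only, and PCR copies of 1 molecule are not independent counts. Treatment, GFP gate and mice differed together between the libraries and cannot be told apart, and in bulk samples more cells of a type and more RNA per cell cannot be told apart either. All 12 measured T-cell markers reached more than 100 CPM in both libraries, with a summed level of 8978 CPM in the Dox library and 6989 CPM in the untreated library, so the label of T-cell leukemia fits its markers.

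As a family, GIMAP transcripts were more abundant in the Dox library than in the untreated library. Summed over the 8 genes they made up 0.333% of counts in the Dox library (54834 counts, 3348 CPM) and 0.122% in the untreated library (20761 counts, 1216 CPM), a ratio of 2.75 (interval 2.71 to 2.80). A 2-fold higher level or more was seen for 6 of the 8 genes, while 13.6% of all genes tested were that much higher. The whole counting interval lay above 2-fold for the same 6, and for 9.11% of all genes. The other 2, Gimap1 and Gimap9, lay within 2-fold, and 0 were lower by 2-fold or more, while 13% of all genes were. Since the family was chosen with these folds known, nothing is read from its share against that of all genes. The median log2 fold of the members was 1.57, against -0.01 for all genes tested. The members did not move by 1 common factor: their log2 folds ran from -0.04 for Gimap9 to 3.00 for Gimap3.

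**Figure D1:**
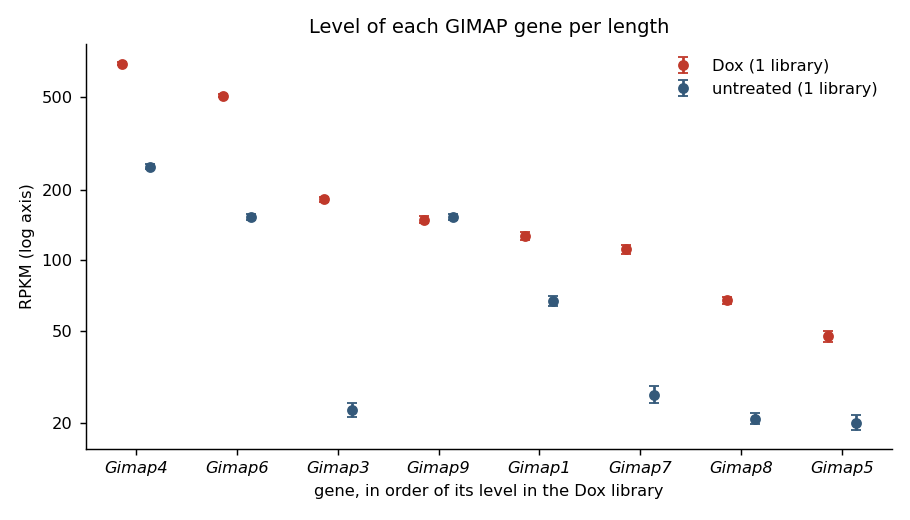
RPKM (reads per kilobase of gene length and 1000000 counts, log axis) of each GIMAP gene in the Dox library (red, left) and the untreated library (blue, right), with 95% counting intervals and 1 library per condition. Gimap4 was the most abundant in both, and Gimap9 alone had overlapping intervals between the libraries.

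Gimap3, Gimap5 and Gimap1 are members tied to lymphocyte survival or to mitochondria. Gimap3 (Entrez 83408), which in mice also sets how mitochondrial DNA variants segregate in blood tissues, had 6416 counts and 391.8 CPM in the Dox library, against 835 counts and 48.9 CPM in the untreated library. The ratio was 8.01 (interval 7.45 to 8.62), the highest of the family. By log2 fold, which includes the prior count, Gimap3 had rank 254 from the top among the 12125 genes. Its close relative Gimap5 (Entrez 317757), which binds members of the Bcl-2 family and is needed for the survival of peripheral T cells, had 1502 counts and 91.7 CPM in the Dox library, against 669 counts and 39.2 CPM in the untreated library, a ratio of 2.34 (2.13 to 2.57). Compared per length, Gimap3 was 3.87 times as abundant as Gimap5 in the Dox library and 1.13 times as abundant in the untreated library. The pair was nearly even in the untreated library and far apart in the Dox library. Of the 50-base stretches of each transcript, 9.06% of those of Gimap3 and 9.98% of those of Gimap5 occurred in the other, so most of each transcript can be told apart at that length. With any other annotated gene on the same strand counted, the shares were 9.83% for Gimap3 and 15.1% for Gimap5. How reads with several alignments were counted is not stated. The values of Gimap3 and Gimap5 are therefore uncertain by an amount that these shares do not bound. Gimap1 (Entrez 16205), required in mice for the survival of mature T and B cells, had 3134 counts and 191.4 CPM in the Dox library, against 1716 counts and 100.5 CPM in the untreated library. Its ratio of 1.90 (1.79 to 2.02) lay just under 2-fold, with an interval that crosses it. Of the 50-base stretches of the Gimap1 transcript, 12.8% occurred in another annotated gene on the same strand. With the read-through gene Gm28053 set aside, the share was 2.49%. The interval does not cover the uncertainty from such shared reads.

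The most abundant members were Gimap4 and Gimap6. Gimap4 (Entrez 107526), which speeds the death of T cells once apoptosis has begun, stood at 1259 CPM in the Dox library (20617 counts) and 456.1 CPM in the untreated library (7786 counts), a ratio of 2.76 (2.69 to 2.83). Gimap6 (Entrez 231931), which binds the autophagy protein Gabarapl2, stood at 817.8 CPM in the Dox library (13393 counts) and 248.2 CPM in the untreated library (4237 counts), a ratio of 3.29 (3.18 to 3.41). Together they held 62.0% of the family's counts in the Dox library and 57.9% in the untreated library. Neither transcript shared a 50-base stretch with any other annotated gene on the same strand.

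Gimap7, Gimap8 and Gimap9 are less well studied. Gimap7 (Entrez 231932), whose human counterpart stimulates GTP hydrolysis by pairing with itself or with GIMAP2, had 2314 counts and 141.3 CPM in the Dox library, against 576 counts and 33.7 CPM in the untreated library. At 4.19-fold (3.82 to 4.60) it followed Gimap3 as the other member past 4-fold, a size that 4.46% of all genes reached upwards. Gimap8 (Entrez 243374), the longest member, had 4078 counts and 249.0 CPM in the Dox library, against 1324 counts and 77.6 CPM in the untreated library, a ratio of 3.21 (3.02 to 3.42). Gimap9 (Entrez 317758) stood apart, with 3380 counts and 206.4 CPM in the Dox library, against 3618 counts and 211.9 CPM in the untreated library. Its ratio was 0.974 (0.929 to 1.02). By log2 fold it lay in the middle of all genes, 48.5% of which had a lower one. Without Gimap9 the other 7 genes summed to 3142 CPM in the Dox library and 1004 CPM in the untreated library, a ratio of 3.13 (3.07 to 3.18). With a trend of the folds with gene length removed, the log2 fold of Gimap9 was 0.13 in place of -0.04 and that of Gimap1 was 1.08 in place of 0.93, past 2-fold.

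By point values, the order of the genes changed through Gimap3: without it, the other 7 stood in the same order in both libraries. In the untreated library the counting intervals of Gimap6 and Gimap9, and those of Gimap8 and Gimap5, overlapped. The order within these pairs is therefore not settled there. Per length, the Dox library held Gimap4 at 695.5 RPKM, Gimap6 at 507.3, Gimap3 at 182.6, Gimap9 at 149.2, Gimap1 at 127.1, Gimap7 at 111.3, Gimap8 at 67.3 and Gimap5 at 47.2 RPKM, with no overlap between the counting intervals of neighbours. In the untreated library Gimap4 led at 252.0 RPKM, followed by Gimap6 at 154.0 and Gimap9 at 153.2, whose intervals overlapped. Gimap1 came next at 66.8 RPKM, then Gimap7 at 26.6, Gimap3 at 22.8, Gimap8 at 21.0 and Gimap5 at 20.2 RPKM. The intervals of Gimap3, Gimap8 and Gimap5 overlapped there, so no order among them can be given there. The most abundant member exceeded the least abundant 14.7-fold in the Dox library and 12.5-fold in the untreated library. These are abundant transcripts: Gimap4 lay above 99.3% of tested genes in the Dox library and 97.4% in the untreated library, and even Gimap5 lay above 82.4% of them in the Dox library and 63.2% in the untreated library.

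**Figure D2:**
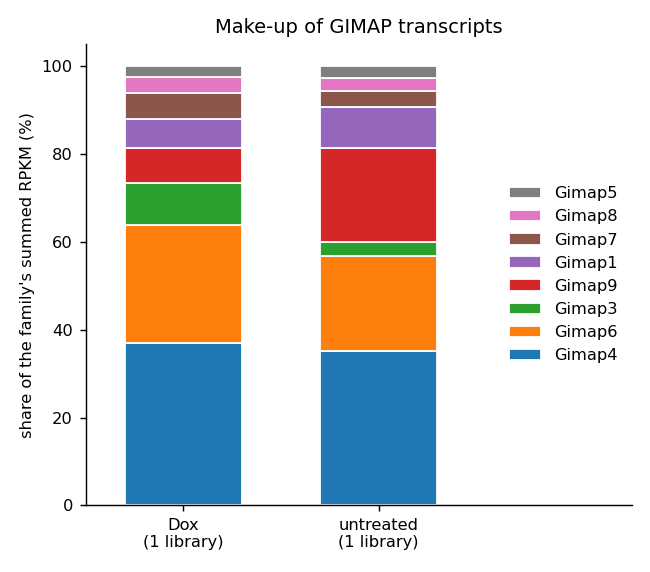
Share of the family's summed RPKM held by each gene in the Dox library (left bar) and the untreated library (right bar). Gimap9 held 7.91% in the Dox library and 21.4% in the untreated library, and Gimap3 held 9.68% in the Dox library and 3.18% in the untreated library.

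In terms of make-up, Gimap9 held 7.91% of the family's summed RPKM in the Dox library and 21.4% in the untreated library, while Gimap3 held 9.68% in the Dox library and 3.18% in the untreated library. The share of Gimap4 was close in both, at 36.8% in the Dox library and 35.2% in the untreated library. The share of Gimap6 was 26.9% in the Dox library and 21.5% in the untreated library.

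Genes beside the cluster did not share a direction. Within 500 kb of either end, 23 other genes are in the count table, 12 passed the filter, and 6 had no count in either library. Of the 12, 4 reached a 2-fold higher level in the Dox library, 0 a 2-fold lower one and 8 lay within 2-fold, with a median log2 fold of 0.01; over all genes tested, 13.6% were higher and 13% lower by that much. The 4 had at most 13.4 CPM in either library. Repin1, a zinc finger gene, had 32 counts in the Dox library and 2 in the untreated library (ratio 16.7, interval 4.25 to 144), and it passed the filter through the Dox library alone, which fixes its direction. Lrrc61 had 74 counts in the Dox library and 21 in the untreated library (3.67, 2.24 to 6.28), and the zinc finger gene Zfp775 had 57 in the Dox library and 22 in the untreated library (2.70, 1.63 to 4.64). Gpnmb, a glycoprotein gene of macrophages and pigment cells, had 219 counts in the Dox library and 66 in the untreated library (3.46, 2.62 to 4.63). Repin1, Lrrc61 and Zfp775 lie on the Gimap8 side of the cluster and Gpnmb on the Gimap3 side. On the Gimap3 side, the nearest genes past the filter were the membrane protein genes Tmem176b, with 62 counts in the Dox library and 75 in the untreated library, and Tmem176a, with 39 in the Dox library and 47 in the untreated library. The genes of the window above 100 CPM in both libraries were the RNA-binding protein gene Igf2bp3, with a log2 fold of 0.22, and the splicing regulator gene Tra2a, with -0.52. The log2 folds of the others within 2-fold were 0.45 for Krba1, -0.23 for Zfp862-ps, -0.54 for Zfp467 and -0.65 for the mitochondrial ribosome assembly gene Malsu1.

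**Figure D3:**
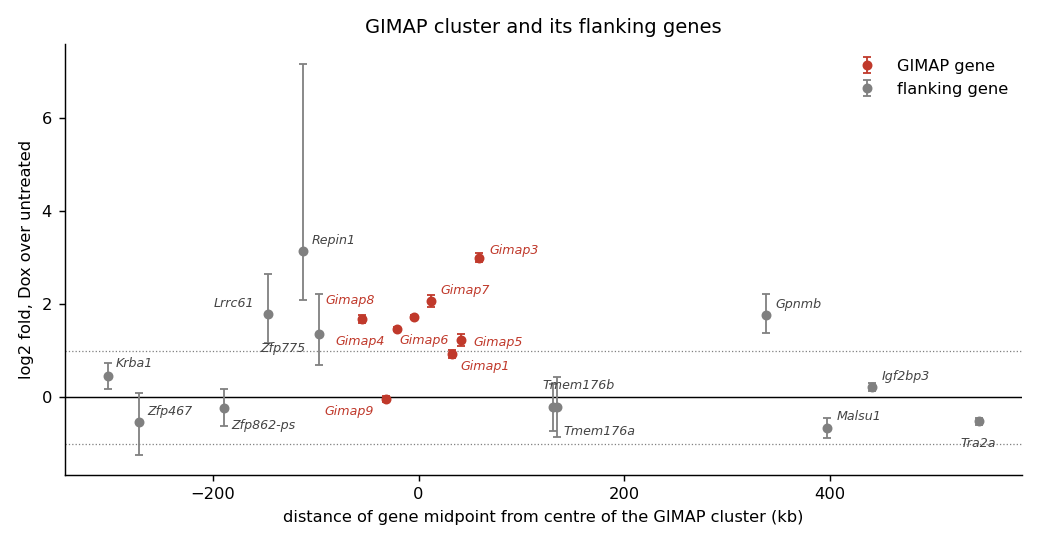
Log2 fold (Dox over untreated) of the 8 GIMAP genes (red) and the 12 flanking genes past the filter (grey) against the distance of each gene's midpoint from the centre of the cluster in kb, with 95% counting intervals. Dotted lines mark 2-fold; 7 GIMAP genes lie between 0.93 and 3.00, Gimap9 lies at -0.04 between neighbours at 1.68 and 1.46, and the flanking genes scatter around a median of 0.01.

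The promoters of Gimap3, Gimap5 and Gimap9 are shown because they belong to the member with the highest fold, its nearest relative and the member with the lowest fold. Each window runs from 250 bases before to 50 bases after the RefSeq start site (GRCm38.p6), on the strand of the gene, with GGGAA, the core that Ikaros binds, in capitals where it lies on either strand (read as TTCCC when it lies on the other). RefSeq lists 2 start windows for Gimap8, which makes 9 windows for the 8 genes.
Gimap3 (chr6:48770802-48771101, minus strand): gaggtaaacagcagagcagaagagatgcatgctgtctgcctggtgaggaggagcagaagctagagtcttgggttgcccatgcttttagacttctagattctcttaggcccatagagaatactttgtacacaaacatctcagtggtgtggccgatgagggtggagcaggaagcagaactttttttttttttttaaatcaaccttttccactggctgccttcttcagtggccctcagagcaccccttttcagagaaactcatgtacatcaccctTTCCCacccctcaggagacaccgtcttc
Gimap5 (chr6:48745947-48746246, plus strand): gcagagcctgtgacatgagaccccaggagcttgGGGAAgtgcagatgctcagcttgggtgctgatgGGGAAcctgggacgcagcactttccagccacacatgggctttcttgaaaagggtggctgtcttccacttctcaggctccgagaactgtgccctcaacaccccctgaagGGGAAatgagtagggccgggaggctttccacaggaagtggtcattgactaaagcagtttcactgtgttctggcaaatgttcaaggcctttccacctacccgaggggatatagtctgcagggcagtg
Gimap9 (chr6:48675885-48676184, plus strand): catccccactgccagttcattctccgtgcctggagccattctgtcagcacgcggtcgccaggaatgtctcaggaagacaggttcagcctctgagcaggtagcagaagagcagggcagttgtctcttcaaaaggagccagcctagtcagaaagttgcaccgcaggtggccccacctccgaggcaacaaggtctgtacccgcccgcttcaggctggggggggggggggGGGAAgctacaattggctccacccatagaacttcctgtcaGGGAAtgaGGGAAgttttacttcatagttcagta
The core GGGAA occurred 1 time in the Gimap3 window, 3 times in that of Gimap5 and 3 times in that of Gimap9, and of the 9 windows of the family 4 held it, against 62.7% of 32851 mouse promoter windows. The longer TGGGAA, shared by Ikaros and by RBPJ, the DNA-binding partner of Notch, occurred in the Gimap3 window alone, as GTGGGAA on the opposite strand. Of all windows, 25.6% held TGGGAA and 6.38% GTGGGAA. The Runx core TGTGGT occurred in the windows of Gimap4, Gimap7 and Gimap1, against 16.8% of all windows, and the forkhead motif GTAAACA in that of Gimap3, against 3.65%. TGGGAA contains GGGAA and is contained in GTGGGAA, so a match of the longest counts for all of them. All motifs were searched on both strands. The letters describe these windows and say nothing of binding. The windows with the most GGGAA, those of Gimap9 and Gimap5, held it 3 times, and 8.83% of all windows held it 3 times or more.

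A list of 11 genes held reported partners of GIMAP proteins and survival genes tied to them. Of the 10 past the filter, 2 lay past 2-fold upwards and 1 downwards, close to the shares of all genes tested (13.6% higher, 13% lower), with a median log2 fold of 0.47. The gene of the pro-death protein Bim, Bcl2l11, stood at 149.1 CPM in the Dox library and 42.3 CPM in the untreated library (log2 fold 1.81). Gabarapl2, the partner of Gimap6, stood at 57.9 CPM in the Dox library and 28.9 CPM in the untreated library, a difference that lies on the 2-fold threshold. Hspa8, the chaperone Hsc70, stood at 325.4 CPM in the Dox library and 761.0 CPM in the untreated library (-1.23), and the survival gene Mcl1 had a log2 fold of 0.92. Named after their values were seen, the Bcl-2 family genes of the list had log2 folds of 0.23 for Bcl2, 0.14 for Bcl2l1 and -0.74 for Bax, and the kinase gene Gsk3b had 0.70.

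Genes of naive T-cell survival and quiescence, the state in which GIMAP proteins are best known, numbered 16. Of these, 10 passed 2-fold upwards and 0 downwards, beside 13.6% and 13% of all genes tested, with a median log2 fold of 1.21. The whole counting interval lay above 2-fold for 8 of the list, and for 9.11% of all genes tested. The egress receptor gene S1pr1 had a log2 fold of 2.62, the antiproliferative genes Tob1 and Btg1 2.32 and 1.99, and the transcription factor gene Foxo1 1.75. The lowest of the list was Lef1 at -0.35, and Tcf7 had 0.10 (both named after their values were seen). Il7r, the receptor of the survival cytokine interleukin 7, stood at 66.1 CPM in the Dox library and 74.6 CPM in the untreated library (named after its value was seen). Earlier results of these libraries already showed several of these genes, so they are no independent support.

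Among other GTPase families, the interferon-inducible GBP, IRG and Mx genes passed 2-fold upwards in 18 of 19 cases, beside 13.6% of all genes tested. Their median log2 fold was 2.28, with the highest values for Mx1 (3.64), Mx2 (3.53), Gbp6 (3.08) and Gbp9 (2.98). Gbp11 stood at 7.51 CPM in the Dox library and 0.996 CPM in the untreated library (named after its value was seen). It passed the filter through the Dox library alone, which fixes its direction. The septins, the structural relatives of the GIMAPs, had a median of 0.19, with 1 of 10 past 2-fold upwards and 1 downwards, close to the shares of all genes tested (13.6% and 13%). These were Septin3, with 30 counts in the Dox library and 0 in the untreated library (at least 10.4-fold higher, taking 3 counts as the limit of a library at 0; it passed the filter through the Dox library alone), and Septin10, with 44 counts in the Dox library and 173 in the untreated library. Septin6 and Septin8 had log2 folds of 0.76 and -0.72. The GIMAP median of 1.57 fell between those of these families; the differences between families were not tested.

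**Figure D4:**
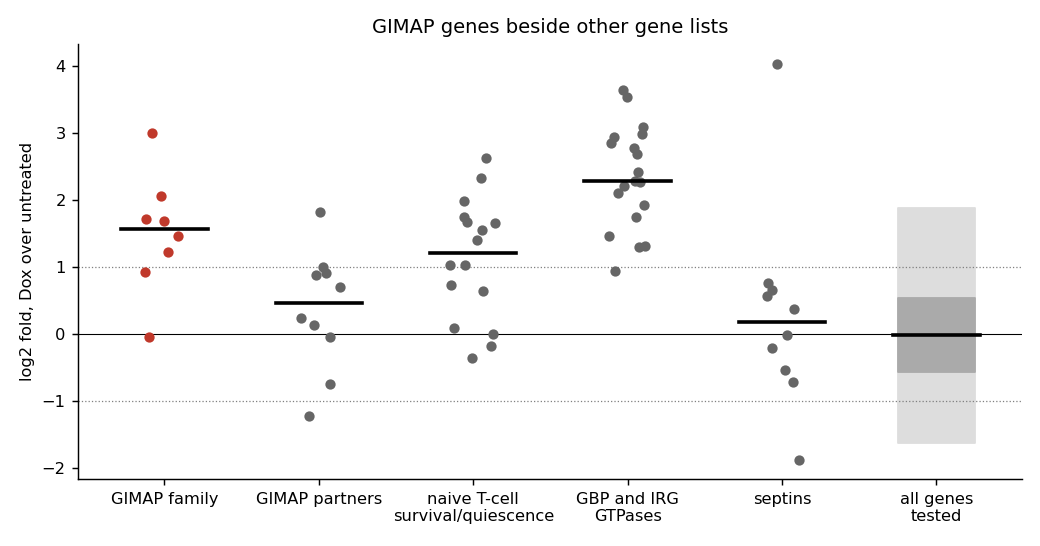
Log2 fold (Dox over untreated) of each gene past the filter in the GIMAP family (red) and in 4 other lists (grey), with list medians as black bars; at the right, the middle 50% (dark) and 90% (light) of all 12125 genes. The medians were 1.57 for the GIMAP genes, 0.47 for the partners, 1.21 for the naive T-cell genes, 2.28 for GBP and IRG genes, 0.19 for septins and -0.01 for all genes. The highest septin point is Septin3, with 0 counts in the untreated library, whose plotted value depends on the prior count.

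The genes whose levels lay nearest to the median GIMAP gene in both libraries, among 9599 genes with a symbol and at least 5 CPM, were Tubb2a, Ccng2, Nsd3, Lztfl1 and Atp8b2. Likeness was the distance on the log2 CPM scale over the 2 libraries, which rests on 2 values per gene. Ccng2, which encodes the unconventional cyclin G2, stood at 225.6 CPM in the Dox library and 85.4 CPM in the untreated library. The tubulin gene Tubb2a stood at 219.4 CPM in the Dox library and 88.1 CPM in the untreated library.

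Markers of mature T cells and of other blood cells were also higher in the Dox library in part. The 9 markers of mature T cells, which the leukemia may itself express, had a summed level of 4083 CPM in the Dox library and 2037 CPM in the untreated library, and 3 of 9 passed 2-fold upwards: S1pr1, Ccr7 (log2 fold 1.66) and, barely, Cd8b1, at 629.6 CPM in the Dox library and 314.2 CPM in the untreated library. Over all genes tested, 13.6% passed 2-fold upwards. Cd4 stood at 658.5 CPM in the Dox library and 368.6 CPM in the untreated library, and Cd6 had a log2 fold of 0.89. Many markers of the other cell types reached 1 CPM in the Dox library alone, which fixes their direction, so they are given by summed level and single values and not by counts of higher genes. B-cell markers summed to 6.17 CPM in the Dox library and 1.11 CPM in the untreated library; Pax5 and Ebf1 had 0 counts in both, and of 11 markers 2 reached 1 CPM in the Dox library (Jchain and Blnk) and 0 in the untreated library. Natural killer markers summed to 8.06 CPM in the Dox library and 0.879 CPM in the untreated library, and of 9 markers 3 reached 1 CPM in the Dox library (Prf1, Klrk1 and Nkg7) and 0 in the untreated library, with Ncr1 at 2 counts in the Dox library and 0 in the untreated library. Of 12 endothelial markers 2 passed the filter, Pecam1 (0.93) and Egfl7 (-3.40), and Cdh5 had 2 counts in the Dox library and 0 in the untreated library. Macrophage markers summed to 167.1 CPM in the Dox library and 13.3 CPM in the untreated library, and of 13 markers 10 reached 1 CPM in the Dox library and 5 in the untreated library. Those with the largest folds were Mpeg1 (log2 fold 5.78), Tyrobp (4.32), C1qa (3.08) and Adgre1 (2.88). Dendritic cell markers summed to 2034 CPM in the Dox library and 620.7 CPM in the untreated library. Of 9 markers, 8 reached 1 CPM in the Dox library and 2 in the untreated library. Ccr9 made up most of the sum, with 1865 CPM in the Dox library and 506.8 CPM in the untreated library. Bst2 added 121.6 CPM in the Dox library and 112.8 CPM in the untreated library. Each of the other markers had at most 10.9 CPM in the Dox library and 0.703 CPM in the untreated library. The sum therefore describes Ccr9 and Bst2, and whether the leukemia itself expresses these genes was not tested. Clec9a had 129 counts in the Dox library and Siglech 101, and both had 0 in the untreated library. Itgax had 179 counts in the Dox library and 2 in the untreated library, and Xcr1 165 in the Dox library and 5 in the untreated library. Erythroid markers summed to 79.1 CPM in the Dox library and 12.1 CPM in the untreated library, with 7 of 9 markers at 1 CPM or more in the Dox library and 5 in the untreated library. The largest log2 folds among them were those of Hba-a1 (3.37), Hbb-b1 (3.26), Hba-a2 (2.77) and Slc4a1 (2.37). The erythroid marker Klf1 went the other way, with 12 counts in the Dox library and 18 in the untreated library (-0.46). Its counting interval ran from -1.71 to 0.61. Neutrophil markers summed to 9.83 CPM in the Dox library and 4.86 CPM in the untreated library, with 4 of 8 markers at 1 CPM or more in the Dox library and 2 in the untreated library. The log2 folds were 2.14 for Ngp, 1.37 for Camp, 0.81 for S100a9 and -0.04 for S100a8. The part of such cells in the GIMAP levels was not tested; the summed GIMAP level was 2132 CPM higher in the Dox library.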

How the data were processed

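RNA sequencing of ALL211 leukemia cells gave 1 library per condition. The values are raw read counts per Entrez gene, deposited by the authors with a gene length column; CASAVA 1.8.2, featureCounts and mm10 are named in the submitters' processing notes. No source used here gives the aligner, strand setting, annotation or treatment of reads with several alignments. Sample tables and the series table held the same counts (0 of 27179 genes differed), and 25275 genes received a RefSeq GRCm38 symbol.

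Counts were scaled with TMM factors (0.994 for Dox and 1.01 for untreated) in edgeR 4.0.16 (R 4.3.3). A log2 fold is log2 CPM in Dox minus that in untreated, each with 2 counts added as prior; ratios and CPM carry none, and RPKM divides CPM by the deposited gene length. With 1 library per condition no test was possible. Ratios have exact Clopper-Pearson 95% intervals conditional on the counts, and levels exact Poisson intervals, for counting error only. A floor of 3 counts is 0.183 CPM in the Dox library and 0.176 CPM in the untreated library.

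The members and gene lists were chosen with earlier results of these data known. Named genes are the 8 members, Ikzf1, flanking genes of at least 1 CPM, up to 4 genes per list by size of log2 fold, and the 5 genes nearest the family median; others are marked as named after their values were seen or described with the cell type markers. Sequences come from RefSeq promoters (all 8 members matched) and GENCODE M21 transcripts, the longest coding sequence per gene. No protein sequences were used here. Alternatives were total-count, DESeq2 1.42.0 and upper quartile scaling, a prior of 0.5 or 5, a filter of 1 count or 5 CPM, 4-fold as threshold, calls by the whole counting interval, thinning of the deeper library, totals without markers of other cells, and removal of a trend with gene length (statsmodels 0.14.6). The calculation was tested on simulated counts. Python 3.11.15, numpy 2.4.6, pandas 2.3.3, scipy 1.17.1, biopython 1.88 and matplotlib 3.10.9 were used.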

Additional observations from a re-analysis of the deposited data

How the results depend on the processing

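No paired analysis was possible because each condition has 1 library, and for the same reason no library could be left out. Across the alternatives that apply, the median log2 fold of the GIMAP genes ran from 1.55 to 1.60 and that of Gimap3 from 2.98 to 3.06, and the summed level, which gave no value with the length trend, was 1.49 at most, with upper quartile scaling (main value 1.46). The number of GIMAP genes past the threshold was 6, but 7 with a trend of fold with gene length removed (Gimap1 added) and 2 at 4-fold (Gimap3 and Gimap7). That removal turned the log2 fold of Gimap9 to 0.13; the cause was not tested. Genes at least 2-fold higher numbered 2993 with a filter of 1 count, 1091 with 5 CPM and 541 at 4-fold, and those lower 372 at 4-fold and 1016 by the counting interval, against 1644 and 1581. Flanking genes higher numbered 1 with a filter of 5 CPM and 1 at 4-fold, against 4. Partner genes higher numbered 1 with total-count scaling, DESeq2 size factors, a prior count of 5 or the counting interval, since Gabarapl2 lies on the threshold, and 0 at 4-fold, with 0 lower at 4-fold. Naive T-cell genes higher numbered 2 at 4-fold. Septins higher numbered 2 with a filter of 1 count and 0 with 5 CPM, and 0 were lower at 4-fold.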
